A study of Caenorhabditis elegans with 4 samples.

Results

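The regions described are the MIS-12 peaks on chromosome II of Caenorhabditis elegans, taken as every row that 3 deposited peak lists place on that chromosome. They number 118 of 694 peaks in the list of ChIP replicate 1, 110 of 746 in that of replicate 2 and 172 of 1251 in a list deposited for the series as a whole, called the combined list below. MIS-12 was recovered by ChIP-seq with SDQ2966, an affinity-purified polyclonal rabbit antibody to a fragment of the protein, from N2 worms, the wild-type strain, at mixed embryonic stages (males and hermaphrodites, 20 degrees Celsius). The labels list 2 ChIP samples and 2 input samples of this one genotype and stage, with no other treatment, and the input samples were not analysed here. All groups therefore share the same strain, stage and fixation (2% formaldehyde for 30 minutes), and embryos of all ages and cells in and out of mitosis contribute to each library. Separate cultures are not recorded for the replicates, so what they share or differ in may be technical.

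MIS-12 is the founding subunit of the Mis12 complex, which joins the centromeric chromatin to the NDC-80 complex and KNL-1 and, through them, to spindle microtubules. Most animals build this kinetochore at a single site on each chromosome. C. elegans chromosomes are holocentric: the kinetochore assembles along the poleward face of the whole chromosome on chromatin that carries the centromeric histone HCP-3. The autosomes of this worm have a gene-dense centre where meiotic crossovers are rare, flanked by arms that are richer in repeats and in crossovers.

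Each list gives the first and last base of a peak in genome build WormBase WS220 and a score from the peak caller, whose definition the files do not state. Scores of the replicates began at 50.2 and 50.3 on II and did not exceed 3100, a value that 3 peaks of replicate 1 and 4 of replicate 2 shared. Scores of the combined list ran from 1.31 to 45.7 on II and are on another scale, so they were compared only within that list. Read counts were not given, so the depth behind a peak is unknown, and intervals below cover counting error of peaks only. Peaks that lie near each other are not independent, which makes p-values over peaks too small. A gene annotation of build WS220 was not used here, so the regions are named by position.

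Chromosome II carried a small set of strong regions that both replicates recovered and several dense groups of narrow peaks. It also had many weak peaks seen in 1 list. In some of the strong regions, but not all, the replicates had nearly the same borders. When peaks of the 3 lists with at most 2 kb between them were joined, II held 133 loci. Of these, 31 (23.3%) had peaks in all 3 lists. These 31 loci held 73.5% of the sequence covered by replicate 1 on II, 96.5% of that covered by replicate 2 and 73.5% of that covered by the combined list. Another 60 loci (45.1%) had combined peaks only, with a median span of 209 bp, and they held 16.8% of the combined sequence. Replicate 1 alone accounted for 18 loci and replicate 2 alone for 3. The other loci joined the combined list with replicate 1 (14) or replicate 2 (5), or the 2 replicates without the combined list (2). These locus shares are given for II only, so they do not set it apart from other chromosomes. By peak, 26.2% of combined peaks on II were found in both replicates, against 27.0% of the whole list. Those found in neither were 53.5%, against 51.7%.

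**Figure D1:**
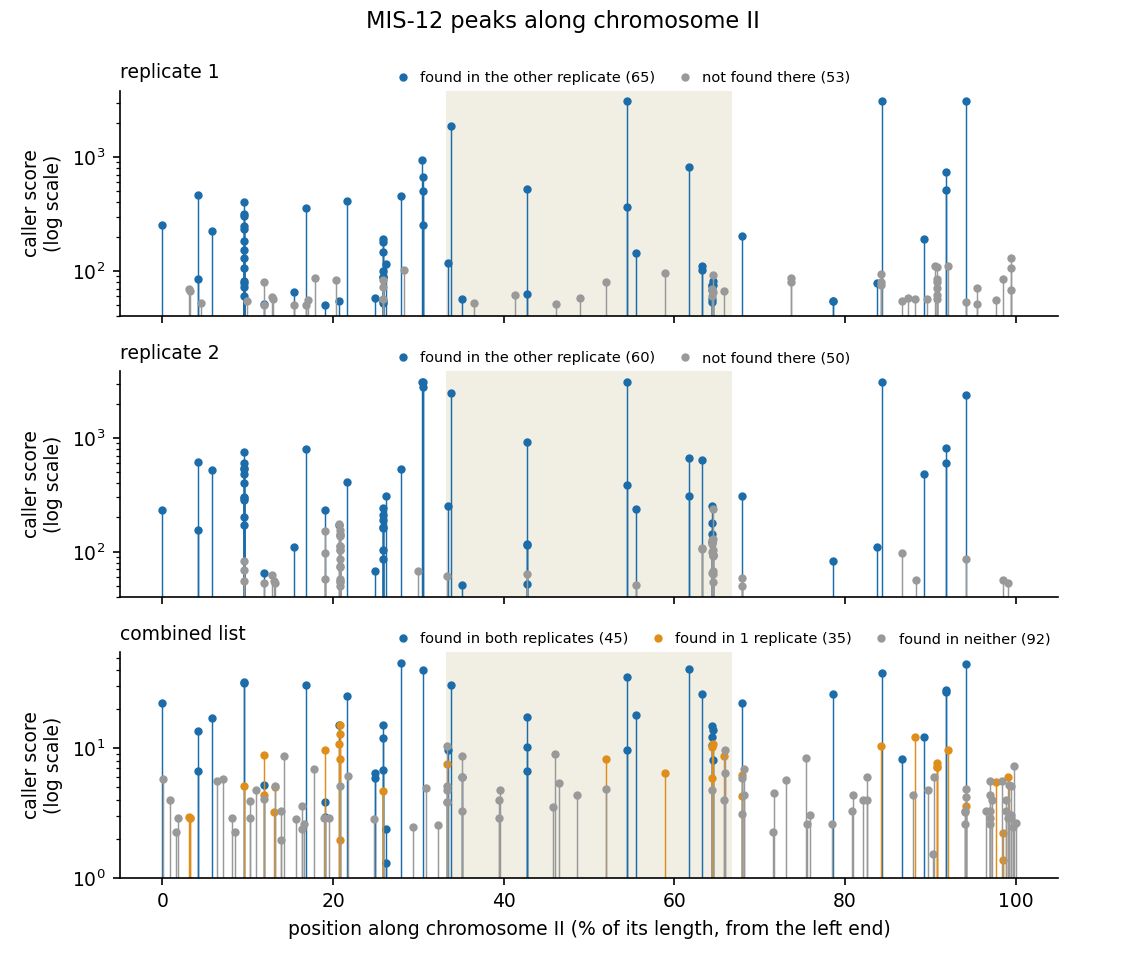
Each stem is 1 peak on chromosome II, placed by its midpoint as a percent of the chromosome's length (x axis) with its caller score on a log scale (y axis), in replicate 1, replicate 2 and the combined list; the shaded band is the middle 33.3%. Replicate peaks with scores above 236 were all found in the other replicate (blue), while 92 of 172 combined peaks were found in neither (grey), many of them near the right end.

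The 10 highest-scoring combined peaks of II were all found in both replicates. The first lay on the left part of the chromosome (II, 4259923 to 4260469, 547 bp) and scored 45.7, the 16th highest score of the whole combined list. In replicate 1 its counterpart scored 456 and in replicate 2 it scored 538, with borders 5 and 36 bp apart. Those scores ranked 13th of 118 in replicate 1 and 19th of 110 in replicate 2 on II. At 547 bp the peak was wider than the median combined peak of II (245 bp).

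The second lay near the right end (II, 14337468 to 14339222, 1755 bp) and scored 45.1. Replicate 1 gave it 3100 and replicate 2 gave it 2397, which makes it one of the few regions where replicate 1 stood higher. The replicate peaks there began 183 bp apart and ended 9 bp apart. The third, in the middle of the chromosome (II, 9404699 to 9405398, 700 bp), scored 40.7 in the combined list and 818 in replicate 1. Replicate 2 had 2 peaks there, with scores of 309 and 665, separated by 3 bp.

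A 3918-bp combined peak (II, 4641155 to 4645072, score 40.4) was divided into pieces that met almost end to end in each replicate. Replicate 1 had 4 pieces with scores of 253 to 946, and replicate 2 had 3 with scores of 2818 to 3100. Their outer borders were 7 and 23 bp apart, and 98.6% of the bases covered by either replicate were covered by both. The replicates therefore marked the same stretch of sequence with very different scores.

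Single undivided peaks marked several wide regions. The region at II, 8288332 to 8292706 (4375 bp, combined score 35.5) was a single peak in each replicate, of 4482 bp in replicate 1 and 4479 bp in replicate 2, and both scored 3100. A region on the right part of the chromosome (II, 12843646 to 12846151, 2506 bp, score 38.2) also reached 3100 in both. At II, 5144838 to 5146777 (1940 bp, score 30.7) the replicate peaks began 1 bp apart and ended 3 bp apart, with scores of 1867 and 2503. In these 3 regions the replicate peaks began no more than 48 bp apart.

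The rest of the 10 were the neighbours at II, 1450408 to 1454871 (4464 bp, score 32.4) and 1455688 to 1458611 (2924 bp, score 31.7), both part of a dense group described further on, and a 789-bp peak at II, 2570275 to 2571063 (score 31.0). The last had a peak of 356 and a small one of 50.3 in replicate 1 and a single peak of 795 in replicate 2. The peaks of 356 and 795 began 222 bp apart and ended 14 bp apart.

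Most peaks on II were narrow. The median width was 276 bp in replicate 1 (interquartile range 203 to 491), 285 bp in replicate 2 (191 to 536) and 245 bp in the combined list (172 to 561). The replicate 1 peaks of the other 5 nuclear chromosomes had a median of 345 bp, those of replicate 2 had 295 bp and combined peaks had 280 bp. Peaks of 2000 bp or more numbered 4 of 118 in replicate 1 (3.39%, Wilson 95% interval 1.33 to 8.39, against 7.93% of the whole list), 3 of 110 in replicate 2 (2.73%, 0.932 to 7.71, against 6.70%) and 10 of 172 in the combined list (5.81%, 3.19 to 10.4, against 6.16%). On the other chromosomes the shares were 8.85%, 7.24% and 5.95%, and none of the 3 differences passed the test (Fisher's exact test, two-sided, p adjusted over 3 lists = 0.141, 0.141 and 1). Covered sequence came to 56.3 kb in replicate 1, 52.6 kb in replicate 2 and 96.8 kb in the combined list, or 3.70, 3.45 and 6.36 kb per Mb. The other nuclear chromosomes had 5.15, 5.06 and 7.56 kb per Mb. Wide peaks held 22.0%, 17.4% and 32.8% of the covered sequence of II, against 46.0%, 41.9% and 38.2% elsewhere; these shares were not tested.

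The 5 widest combined peaks of II include a region that the replicates saw unequally. The 3987-bp peak at II, 3164441 to 3168427 (score 15.0) overlapped 10 peaks of replicate 2, with scores of 54.2 to 144, and no peak of replicate 1. The other 4 are the peaks of 4464, 4375, 3918 and 2924 bp given above, and each was found in both replicates.

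The number of peaks per Mb on II lay within counting error of the other chromosomes. It was 7.75 in replicate 1 (Poisson 95% interval 6.41 to 9.28), 7.22 in replicate 2 (5.94 to 8.71) and 11.3 in the combined list (9.67 to 13.1). The mean of the replicates was 7.49 ± 0.37 (SD, n = 2), against 7.13 ± 0.49 on the other 5 nuclear chromosomes. The ratio to those chromosomes was 1.14 in replicate 1 (95% interval 0.930 to 1.40) and 0.967 in replicate 2 (0.782 to 1.19). For combined peaks it was 0.892 (0.755 to 1.05). None of these differed from 1 beyond counting error (exact binomial test, two-sided, p adjusted over 3 lists = 0.279, 0.799 and 0.279). By density II was the second of the 6 chromosomes in replicate 1, the third in replicate 2 and the fifth in the combined list, so even its place in the order was not stable. The intervals leave room for a difference of up to about 1.40 times in replicate 1. Single chromosomes were not tested against II. They ran from 4.92 peaks per Mb (X) to 9.21 (III) in replicate 1 and from 5.54 (X) to 12.1 (III) in replicate 2. In the combined list they ran from 9.95 (X) to 14.9 (III). The interval of II did not meet that of X in replicate 1 (3.94 to 6.07) or that of III in replicate 2 (10.3 to 14.1).

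Along II, combined peaks were fewer per Mb in the middle 33.3% than in the rest of the chromosome, but covered sequence did not follow this pattern. Combined peaks covered 40.472 kb in the first 33.3% of II, 32.997 kb in the middle and 23.309 kb in the last 33.3%. Their median widths were 254, 399 and 205.5 bp. Covered sequence of the middle lay between that of the ends in each replicate too. Much of the combined sequence of the middle, 15.22 kb, lay in 1 group (II, 9807987 to 9824595). Replicate 1 covered 2.623 kb of that group and replicate 2 covered 4.59 kb. Amounts without the group were not computed. These amounts were not tested. The middle had 39 combined peaks (7.68 per Mb) and the ends 133 (13.1 per Mb), a ratio of 0.586 (0.399 to 0.844, exact binomial adjusted p = 0.00806). Joined into loci, the ratio was 0.435 (0.254 to 0.711, exact binomial adjusted p = 0.00119). The difference in number was not seen among the combined peaks in the upper 50% of scores, of which 29 were in the middle and 55 outside it (ratio 1.05, 0.648 to 1.68, exact binomial adjusted p = 0.818). In the replicates the ratio was 0.652 (0.413 to 1.00, exact binomial adjusted p = 0.0755) and 0.857 (0.552 to 1.30, exact binomial adjusted p = 0.481), neither past the threshold of 0.05. With the centre of a published recombination map (4.9 to 12 Mb on II, entered from memory and rounded to 0.1 Mb) in place of the middle, the replicates gave 0.463 and 0.604 and combined peaks 0.598 (exact binomial adjusted p = 0.00028, 0.0127 and 0.0019).

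The ends of II were unlike each other, and the lists differed in how. In replicate 1 the left part of II (its first 33.3%) had 55 peaks, the middle 29 and the right part 34. In replicate 2 the numbers were 62, 33 and 15. In the combined list they were 69, 39 and 64. Per Mb, the right part thus had 6.70 peaks in replicate 1 (4.64 to 9.36), 2.96 in replicate 2 (1.65 to 4.87) and 12.6 in the combined list (9.71 to 16.1). The left part had 10.8 (8.16 to 14.1), 12.2 (9.37 to 15.7) and 13.6 (10.6 to 17.2). Counted as loci, left and right held 27 and 22 in replicate 1, 21 and 11 in replicate 2 and 45 and 47 in the combined list. Both replicates thus had fewer peaks on the right than on the left, and the combined list had nearly equal numbers. This split was noticed in the data and was not tested.

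**Figure D2:**
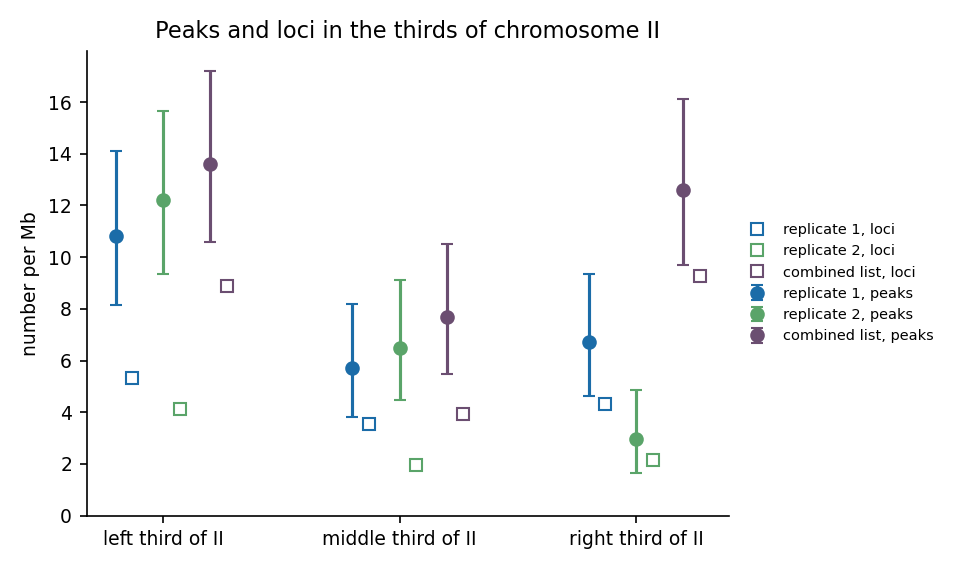
Filled points give the number of peaks per Mb in the left, middle and right 33.3% of chromosome II for each list, with exact Poisson 95% intervals; open squares give loci per Mb, after peaks with at most 2 kb between them were joined. On the right, replicate 2 had 2.96 peaks per Mb and the combined list 12.6.

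The combined peaks on the right were mostly weak and seldom seen in the replicates. Of the 64 there, 8 were found in both replicates (12.5%, Wilson 6.47 to 22.8) and 43 in neither (67.2%). On the left 21 of 69 were found in both (30.4%, 20.9 to 42.1), and in the middle 16 of 39 were (41.0%, 27.1 to 56.6). The median score was 4.37 on the right, 8.72 in the middle and 5.07 on the left. In the last 1 Mb of II the combined list had 29 peaks, with a median score of 3.29, and 23 of them overlapped no replicate peak. That stretch nevertheless held the second strongest peak of the chromosome, the 1755-bp peak named above. The share found in both replicates was higher in the middle (41.0%) than at the ends together (29 of 133, 21.8%, 15.6 to 29.6; Fisher's exact test, two-sided, p = 0.0224). The difference no longer passed the test with 50% reciprocal overlap (17.9% and 11.3%, Fisher's exact p = 0.282) or with the recombination map's centre (30.5% and 23.9%, Fisher's exact p = 0.366).

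By an overlap of 1 bp or more, about as many peaks of II were shared between the replicates as in the whole lists. A replicate 1 peak of II overlapped a replicate 2 peak by 1 bp or more in 65 of 118 cases (55.1%, Wilson 46.1 to 63.8), against 60.8% of the whole list. In the other direction it was 60 of 110 (54.5%, 45.2 to 63.5), against 56.2%. Set against the other nuclear chromosomes (62.0% and 56.5%), neither difference passed the test (Fisher's exact test, two-sided, p adjusted over 2 directions = 0.357 and 0.755). With 50% reciprocal overlap replicate 1 had 38.1% on II and 49.3% elsewhere, and replicate 2 had 40.9% and 44.7% (Fisher's exact adjusted p = 0.0666 and 0.469). Joined into loci, replicate 1 had 50.7% and 60.9%, and replicate 2 had 78.6% and 69.7% (Fisher's exact adjusted p = 0.275 and 0.281). By sequence, 36.6 kb of II were covered in both replicates, which is 50.7% of the 72.3 kb covered in either. The right part of II again stood low in replicate 1, where replicate 2 matched 9 of 34 peaks (26.5%, 14.6 to 43.1). On the left it matched 38 of 55 (69.1%, 56.0 to 79.7). In replicate 2 the shares were 53.3% and 54.8%.

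Every replicate peak of II in the highest 25% of its list's scores on II was found in the other replicate, 29 of 29 in replicate 1 (scores 178 to 3100) and 27 of 27 in replicate 2 (307 to 3100). In the lowest 25%, 11 of 30 (scores up to 58.4) and 4 of 28 (scores up to 69.7) were found. Shares in these score bands were computed for II only, so they do not set it apart from other chromosomes. Among the highest-scoring 50% of each whole list, 80.9% of replicate 1 peaks on II and 66.1% of replicate 2 peaks were found. The other nuclear chromosomes had 76.7% and 71.2%, and neither difference passed the test (Fisher's exact adjusted p = 0.58 for each). The strongest replicate 1 peak of II with no counterpart was also its last (II, 15140003 to 15140280), at a score of 129. The strongest in replicate 2 lay inside a dense group (II, 9822640 to 9823224) and scored 236. On the other nuclear chromosomes, peaks with no counterpart reached 745 in replicate 1 and 386 in replicate 2. Replicate 2 peaks with no counterpart in replicate 1 were in the combined list in 46 of 50 cases (92.0%, against 85.0% of such peaks in the whole list). Of the replicate 1 peaks with none in replicate 2, 25 of 53 were (47.2%, against 49.6%), so the whole lists showed the same contrast.

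Of the 172 combined peaks, 45 were found in both replicates (26.2%, 20.2 to 33.2, against 27.0% of the whole list). In replicate 1 only were 17 (9.88%, against 8.47%), in replicate 2 only were 18 (10.5%, against 12.8%) and in neither were 92 (53.5%, 46.0 to 60.8, against 51.7%). The share found in both was 27.2% on the other nuclear chromosomes, and the difference did not pass the test (Fisher's exact test, two-sided, p = 0.853). The 45 peaks had a median width of 789 bp and a median score of 14.7, and they held 56.9% of the combined sequence of II. The 92 had a median width of 196 bp and a median score of 3.98, and none reached 2000 bp. The strongest of the 92 was a 213-bp peak at II, 5076055 to 5076267, with a score of 10.5.

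**Figure D3:**
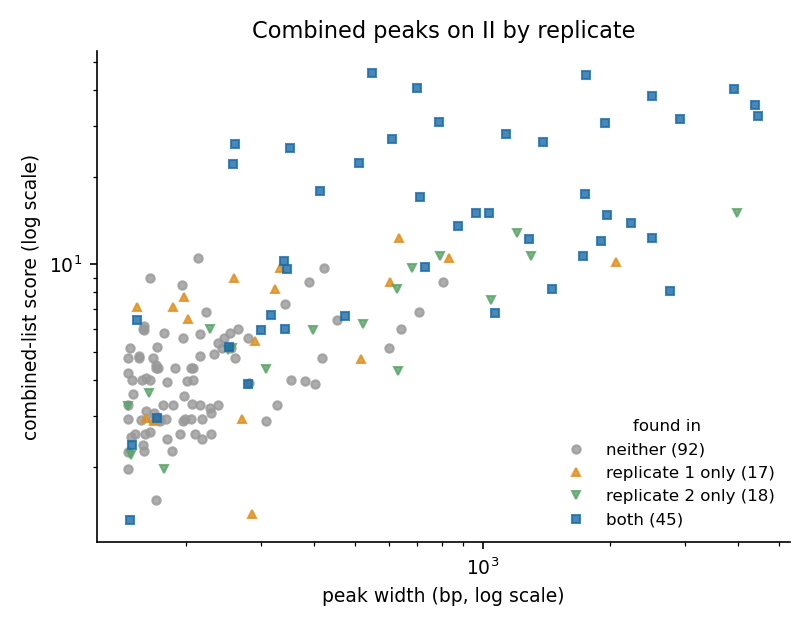
Each point is 1 of the 172 combined peaks on II, by its width (x axis, bp, log scale) and score (y axis, log scale), marked by the replicate lists in which it was found. Peaks found in neither replicate (grey circles) stayed at or under a score of 10.5 and 807 bp, and those found in both (blue squares) reached 45.7 and 4464 bp.

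A few regions ranked differently in the lists. They were chosen after their values were seen. At II, 3994544 to 3994890 the combined list had 2 peaks with scores of 2.38 and 1.31, the latter its lowest on II. Both replicates had a single peak over the same bases, with scores of 115 and 306. In the opposite sense, the combined peak at II, 11960612 to 11960872 scored 26.1, while the replicates gave it no more than 54.5 and 82.8. At II, 12749655 to 12749981 both replicates had a peak (78.7 and 111) with 92.4% of their bases in common, and the combined list had none. A second such locus, at II, 2348134 to 2349042, held 2 peaks of replicate 1 and 1 of replicate 2.

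Shared peaks of II that scored high in one replicate tended to score high in the other. For 65 replicate 1 peaks, the score set against the best score overlapping in replicate 2 gave a Spearman rho of 0.83 (Pearson r of log10 scores 0.84). Restricted to 45 pairs with 50% reciprocal overlap, rho came to 0.91. Without scores of 3000 or more it was 0.79 over 59 replicate 1 peaks. These are descriptions over peaks from the same 2 libraries, which are not independent points. Replicate 2 had the higher score in 37 of the 45 pairs (82.2%, against 204 of 284 pairs elsewhere, 71.8%, not tested). Replicate 1 was higher in 6, and 2 pairs were equal, both at 3100, the highest score on II. That value recurred in 19 replicate 1 and 30 replicate 2 peaks elsewhere, so a tie at 3100 need not mean equal signal. Divided by its replicate 1 partner, the replicate 2 score had a median of 1.52 on II (range 0.773 to 5.61) and of 1.47 over 284 pairs elsewhere.

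**Figure D4:**
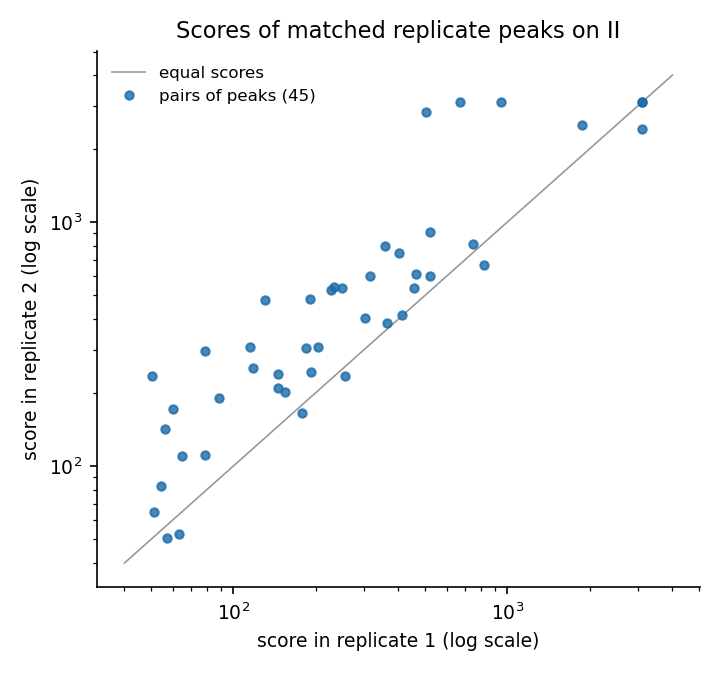
Each point is 1 of 45 pairs of replicate peaks on II that cover at least 50% of each other, with the replicate 1 score on the x axis and the replicate 2 score on the y axis, both on log scales. Replicate 2 scored higher in 37 pairs, which lie above the line of equal scores.

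Of the 3 pairs with the largest ratio of replicate 2 to replicate 1 scores, 2 fell in a single region. These pairs were at II, 4643860 to 4645050 (502 and 2818), at II, 2897773 to 2897980 (50.4 and 233) and at II, 4642834 to 4643858 (674 and 3100). The first and the last of these belong to the divided 3918-bp region. In the other direction the ratios were small. Replicate 1 exceeded replicate 2 by 1.29 times at II, 14337531 to 14339256 (3100 and 2397), by 1.23 times at II, 9404731 to 9405424 (818 and 665) and by 1.20 times at II, 6509179 to 6509361 (63.0 and 52.6). Over the 45 pairs, the median distance was 21 bp between starts and 36 bp between ends. Over 284 pairs elsewhere it was 19 and 20 bp (not tested). All pairs were selected for 50% reciprocal overlap, which itself limits how far apart borders can lie. At the narrow region II, 3290537 to 3290887 (combined score 25.3) the scores were 414 in both replicates.

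More than 50% of the peaks on II, in each list, lay close to another. Another midpoint lay within 5 kb for 74 of 118 replicate 1 peaks (62.7%, Wilson 53.7 to 70.9, against 57.6% of the whole list), 86 of 110 replicate 2 peaks (78.2%, 69.6 to 84.9, against 72.0%) and 100 of 172 combined peaks (58.1%, 50.7 to 65.3, against 61.5%). The other nuclear chromosomes had 56.6%, 71.0% and 62.0%, and no difference passed the test (Fisher's exact test, two-sided, p adjusted over 3 lists = 0.354 for each). Joined at 2 kb, the peaks of II formed 67 replicate 1 loci, 42 replicate 2 loci and 112 combined loci. Groups of 5 or more peaks numbered 3, 5 and 5, and held 25.4%, 50.0% and 18.6% of the peaks of the 3 lists on II. The shares held in groups have no value for other chromosomes beside them, so they describe II alone.

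The densest groups of II differed in how far the replicates met inside them. The group at II, 1450408 to 1458611 (8204 bp) had 13 replicate 1 peaks, 14 replicate 2 peaks and 3 combined peaks. All 13 replicate 1 peaks and 11 of the 14 replicate 2 peaks overlapped a peak of the other replicate, and 93.1% of the bases covered by replicate 1 were also covered by replicate 2. Scores ran from 60.3 to 404 in replicate 1 and from 55.2 to 748 in replicate 2. A pair of wide combined peaks of 4464 and 2924 bp, with a small one of 256 bp between them, spanned the same stretch that the replicate lists divided finely.

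The group at II, 9807987 to 9824595 was the longest, at 16609 bp. The combined list covered 91.6% of it with 9 peaks (scores 4.76 to 14.7). Replicate 1 had 11 narrow peaks there (scores 53.0 to 91.8) and replicate 2 had 16 (54.7 to 253). Their positions interleaved: 7 of the 11 and 5 of the 16 overlapped a peak of the other replicate, and 15.9% of the bases covered by either were covered by both. Each replicate covered a small part of the stretch, 2623 and 4590 bp, and the combined list covered 15220 bp.

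The group at II, 3159532 to 3168427 was nearly a feature of replicate 2. It held 17 replicate 2 peaks (scores 50.4 to 177) and 7 combined peaks (1.96 to 15.0) over 93.9% of its 8896 bp. Replicate 1 had a single peak of 147 bp there, with a score of 54.2, close to the lowest score in its list. The group at II, 3940773 to 3946551 was more even, with 11 peaks in replicate 1 (51.8 to 191), 7 in replicate 2 (86.1 to 244) and 4 in the combined list (4.71 to 15.1). There 8 of the 11 and all 7 overlapped a peak of the other replicate, and 46.9% of the bases covered by either were covered by both.

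**Figure D5:**
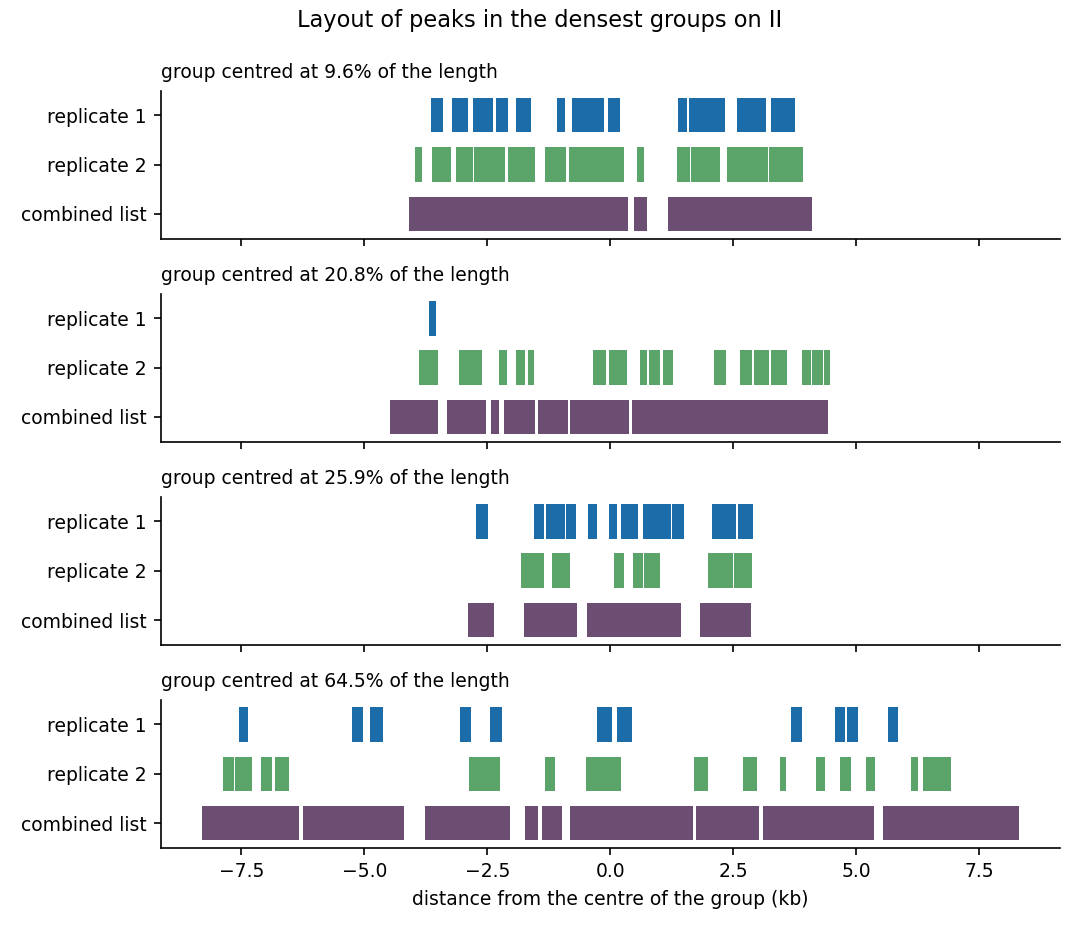
Bars show the extent of each peak in the 4 groups of II that held 7 or more peaks of a replicate, by distance in kb from the centre of the group; rows are replicate 1, replicate 2 and the combined list. The replicates cover much the same bases in the group at 9.6% of the chromosome's length (66.4% of bases in either), interleave in that at 64.5% (15.9%), and differ in number in that at 20.8% (1 peak against 17).

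The other groups of 5 or more combined peaks were weaker or hung on one strong peak. The group at II, 5073475 to 5077406 had 6 combined peaks (scores 3.86 to 10.5), 1 replicate 2 peak of 61.4 and none in replicate 1. The group at II, 10335916 to 10339197 had 5 combined peaks, of which the first (511 bp, score 22.4) was matched by scores of 203 and 307. At II, 14331518 to 14339222, 4 weak peaks with scores of 3.20 to 4.83 stood before the strong 1755-bp peak. Replicate 2 alone also had a group of 5 peaks at II, 6504912 to 6509367 (52.6 to 913), where replicate 1 had a 3202-bp peak of 522 and a 183-bp peak of 63.0.

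No locus of II had 3 or more peaks of replicate 2 and none of replicate 1 when lists were joined at 5 kb, and 3 loci had the reverse. All 3 lay on the right part of II. The longest ran from 13817683 to 13827559, with 6 replicate 1 peaks (56.7 to 108) and 3 combined peaks (7.12 to 7.69). The others were at II, 12822077 to 12822951 (3 peaks, 74.9 to 93.9) and II, 15137749 to 15142419 (3 peaks, 68.3 to 129).

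Among the 31 loci found in all lists, the replicates shared a median of 82.7% of the bases that either covered, and 22 shared at least 50%. At 1 of them, II, 13191646 to 13193101, a 1456-bp combined peak (score 8.24) joined 2 replicate peaks that had no base in common (54.0 and 97.9). The highest score of replicate 2 exceeded that of replicate 1 at 24 loci, fell short at 5 and was equal at 2.

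Between the groups, long stretches of II had no peak. The longest in the combined list were 663 kb (II, 5350586 to 6013095), 531 kb (II, 7391788 to 7922720) and 524 kb (II, 10381776 to 10905336), and they held 1, 1 and 0 replicate 1 peaks and no replicate 2 peak. In replicate 2 the longest was 1778 kb (II, 6509368 to 8287528), within which replicate 1 had 3 peaks. In replicate 1 it was 878 kb (II, 10336680 to 11214536), in which replicate 2 had 2. Over the 15 complete 1-Mb windows of II, peak numbers of the replicates were related with Spearman rho 0.68 and Pearson r 0.82, as a description of windows from the same 2 libraries. The fourth window (3 to 4 Mb) had 16 peaks in replicate 1 and 27 in replicate 2, and the eighth (7 to 8 Mb) had 3 and 0.

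The first bases of II carried a peak in each list. It ran from base 1 to 438 in replicate 1 (score 256), from base 4 to 417 in replicate 2 (score 234) and from base 1 to 258 in the combined list (score 22.3). At the right end the lists parted. The last peak ended at 15140280 in replicate 1, at 15096574 in replicate 2 (153 bp, score 53.2) and at 15226570 in the combined list (164 bp, score 2.63). Repeats and copy number there were not analysed, nor were input libraries.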

How the data were processed

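The data were 3 peak lists. Per the file headers, coordinates are on WormBase WS220, and the caller was MACS (version not stated) for the replicate lists and MACS v2 for the combined list. Aligner, control, calling threshold and any pooling of reads are not given in the sources used. Each peak has a deposited score, made by the authors' caller, of unstated definition. The members, lists and tests were chosen with earlier results of these data known.

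Peaks were matched by at least 1 bp and joined into loci when at most 2 kb apart, with Python 3.11.15, numpy 2.4.6 and scipy 1.17.1. A peak's midpoint set its place. The highest peak end of any list (15226570 on II) served as chromosome length, since no genome of this build was used here. Densities were compared by exact conditional binomial tests and shares by Fisher's exact tests, all two-sided, with Benjamini-Hochberg adjustment over the lists or directions of one comparison. Shares carry Wilson and densities Poisson 95% intervals. Overlap counting and the rate test were tested on simulated data. The simulated counts were independent and the simulated peaks were spaced apart, so these runs do not cover the clustering of the real peaks. Regions named are the 10 highest-scoring and the 5 widest combined peaks, groups of 5 or more combined peaks, the first and last peak and the strongest peak without a counterpart of each list, the 3 most unequal pairs in each direction and the 3 longest gaps. Others were chosen after their values were seen: the 1450408 to 1458611 and 3940773 to 3946551 groups, the 6504912 to 6509367 group, the loci of one replicate, the loci that ranked differently or were missing from the combined list, the locus whose replicate peaks share no base and the region 3290537 to 3290887.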

Additional observations from a re-analysis of the deposited data

How the results depend on the processing

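Of 53 recomputed values for 18 results, 41 kept their direction and their side of an adjusted p of 0.05, or stayed close to the value reported where there was no test. With the recombination map's centre the ratio of middle to ends passed the test in both replicates (0.463 and 0.604). The share of combined peaks found in both replicates was no longer higher in the middle beyond counting error with 50% reciprocal overlap (17.9%) or that centre (30.5%). In the highest-scoring 50% of each list the ratio of middle to ends for combined peaks turned to 1.05, the density ratio of II for replicate 1 turned to 0.874, and the share of replicate 1 peaks found in replicate 2 turned to 80.9% (76.7% elsewhere). With midpoints within 500 bp the share of replicate 2 peaks turned to 63.6% (57.6% elsewhere) and that of combined peaks to 25.0% (24.5% elsewhere). Joined into loci, the share for replicate 2 turned to 78.6% (69.7% elsewhere). At a width of 1000 bp the share of combined peaks turned to 14.5% (11.5% elsewhere). Leaving out a replicate put combined peaks found in the one that remained at 36.0% to 36.6%. Without replicate 2 the share on II turned to lie above that elsewhere (36.0% and 35.5%), and without replicate 1 it did not (36.6% and 40.1%). With either replicate left out, peaks per Mb on II were 7.22 to 7.75. Apart from the ratio of middle to ends, each value that turned belonged to a difference that had not passed the test, and none passed it after turning. The cause was not tested. No paired analysis was possible because the input samples have no peak list here, and the 2 ChIP replicates form 1 group. Unknown read depth limits all counts of weak peaks.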
